A study of Homo sapiens with 6 samples.

Results

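In the prostate cancer cell line C4-2, androgen at a supraphysiological level (SAL) left most genes of the respiratory chain without a change past the test. It raised 8 of the 80 tested (10%) and lowered 3 (3.75%), against 11.5% and 9.37% of all genes tested. The genes described here are the nuclear-encoded subunits of the 5 complexes of oxidative phosphorylation. They were chosen by symbol, as the NDUF subunit genes, SDHA to SDHD, the UQCR genes, CYC1, the COX4 to COX8 genes and the ATP5 genes, without pseudogenes. The pattern matched 86 of 55765 gene symbols, and the 82 with at least 10 counts summed over 6 libraries were kept as members. C4-2 is a castration-resistant subline of LNCaP. In the SAL group, 3 libraries came from C4-2 cells given 1 nM of R1881 (methyltrienolone, a synthetic androgen that is metabolically more stable than DHT) for 72 h. In the DMSO group, 3 libraries came from C4-2 cells given the solvent alone. Each condition was set up 3 times independently, and libraries with the same replicate number were treated as a pair. All samples share 1 cell line in culture, so p-values measure the spread between experiments with that line. RNA was measured in bulk, in which fewer cells and less RNA per cell cannot be told apart.

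The respiratory chain passes electrons from NADH through complex I, or from succinate through complex II, to ubiquinone, and then through complex III and cytochrome c to complex IV, which reduces oxygen. Complexes I, III and IV pump protons out of the mitochondrial matrix, and complex V, the ATP synthase, lets them return to make ATP. Most subunits are encoded in the nucleus and imported, while a small core is encoded by mitochondrial DNA. Malignant prostate cells are known to oxidise citrate, which the normal secretory epithelium of the gland releases.

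Of the 82 members, 36 belong to complex I, 4 to complex II, 9 to complex III, 15 to complex IV, 16 to complex V and 2 to no complex. NDUFA4, once ascribed to complex I and now placed in complex IV, was counted with complex IV together with its paralogue NDUFA4L2. ATP5S and ATP5SL match the pattern by name but are not subunits of the mature synthase, and were placed in no complex. The members lie on 22 chromosomes, with 12 of them on chromosome 19. Most are short genes, since 60 of 82 have a reference transcript under 1000 bases. The tested members had a median of 660 bases, against 2115 over all genes tested.

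The promoter windows of 5 of the 11 members that passed the test are shown, since RefSeq gave windows for these 5 and they stand before members called in both directions. Each window runs from 250 bases before to 50 bases after the annotated start, 5′ to 3′ on the strand of the gene, and was taken from RefSeq on GRCh38.p14. The ATP5J window is chr21:25735005-25735304 on the minus strand, and the ATP5E window is chr20:59032286-59032585, also on the minus strand. Those of UQCRQ (chr5:132866392-132866691), UQCRH (chr1:46303448-46303747) and COX5B (chr2:97645812-97646111) are on the plus strand. Capitals mark the NRF1 motif GCGCATGC, the ETS motif CCGGAAG and the YY1 motif AAGATGGC, on either strand. NRF1 and the ETS factor GABP are known activators of respiratory chain genes.
ATP5J: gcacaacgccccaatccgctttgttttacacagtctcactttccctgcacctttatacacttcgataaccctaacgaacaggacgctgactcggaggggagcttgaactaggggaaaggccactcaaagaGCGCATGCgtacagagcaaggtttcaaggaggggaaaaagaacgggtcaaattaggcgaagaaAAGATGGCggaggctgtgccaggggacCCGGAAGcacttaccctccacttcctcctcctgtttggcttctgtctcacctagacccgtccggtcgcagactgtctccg
ATP5E: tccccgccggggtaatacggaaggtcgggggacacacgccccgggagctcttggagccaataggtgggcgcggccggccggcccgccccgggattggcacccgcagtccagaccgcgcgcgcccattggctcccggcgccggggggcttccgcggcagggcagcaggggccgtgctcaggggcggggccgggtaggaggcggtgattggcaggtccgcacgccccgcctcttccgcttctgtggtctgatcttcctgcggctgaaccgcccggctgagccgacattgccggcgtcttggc
UQCRQ: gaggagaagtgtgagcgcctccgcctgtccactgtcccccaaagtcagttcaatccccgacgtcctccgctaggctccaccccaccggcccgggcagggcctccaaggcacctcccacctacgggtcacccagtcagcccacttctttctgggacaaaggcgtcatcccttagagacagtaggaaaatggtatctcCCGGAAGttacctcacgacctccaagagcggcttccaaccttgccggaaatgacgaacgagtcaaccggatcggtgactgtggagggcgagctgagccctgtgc
UQCRH: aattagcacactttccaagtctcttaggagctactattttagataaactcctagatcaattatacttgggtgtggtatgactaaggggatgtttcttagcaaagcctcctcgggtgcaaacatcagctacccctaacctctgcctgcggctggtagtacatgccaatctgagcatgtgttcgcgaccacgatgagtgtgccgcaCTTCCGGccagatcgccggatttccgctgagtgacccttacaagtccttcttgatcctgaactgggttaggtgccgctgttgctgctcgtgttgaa
COX5B: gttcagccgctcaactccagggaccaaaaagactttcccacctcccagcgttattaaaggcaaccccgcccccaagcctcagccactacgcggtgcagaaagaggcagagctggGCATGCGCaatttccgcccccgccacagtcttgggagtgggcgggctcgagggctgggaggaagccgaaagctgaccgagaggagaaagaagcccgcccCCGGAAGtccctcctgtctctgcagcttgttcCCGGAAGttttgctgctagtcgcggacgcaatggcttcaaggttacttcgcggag

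The ATP5J window shown held the NRF1 motif from position -120, the YY1 motif from -57 and the ETS motif from -30 relative to the start. ATP5J has another annotated start, whose window (chr21:25734855-25735154) held the YY1 motif from -207, the ETS motif from -180 and from -8 and no NRF1 motif. COX5B, which fell, held the NRF1 motif from -136 and the ETS motif from -37 and from -5. Letters present before members that rose were therefore also present before 1 that fell. UQCRQ and UQCRH held 1 ETS motif each, from -54 and -46, and ATP5E held none of the 3. RefSeq gave 77 windows for 64 of the 82 members, since some genes have more than 1 start. The NRF1 motif was in 19.5% of these windows and in 3.05% of the 35116 windows of all genes. For the ETS motif the shares were 27.3% and 10.3%, and for the YY1 motif 16.9% and 2.89%. The ERRA motif TCAAGGTCA was in 1.3% of member windows and 0.353% of all windows. An androgen response element was searched as a palindrome of 2 inverted sites, whose letters are not printed here. It was in 0 of the 77 windows and in 0.39% of all windows. Median GC content was 59.0% in the member windows, 58.7% in all windows and 62.3% in the 22199 windows of protein-coding genes. In these protein-coding windows the shares were 3.74% for the NRF1 motif, 12.8% for ETS and 3.53% for YY1. They were 0.243% for ERRA and 0.293% for the androgen response element. No motif overlapped another in the windows shown. A match is a run of letters, not a site shown to be bound.

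Counts in genes without rRNA genes ranged from 6931042 in DMSO replicate 3 to 9776990 in SAL replicate 2, and rRNA genes held from 11.9% to 27.8% of gene counts. KLK3, the gene of prostate-specific antigen and a known androgen-induced gene, checked the labels, with a log2 fold change of 1.21 (SE 0.0968, adjusted p = 3.33e-07) and a rise in all 3 pairs. FOLH1 and HOXB13, which mark prostate luminal cells, were present in every library. PTPRC, CD3E, COL1A2 and KRT5, which mark leukocytes, T cells, fibroblasts and basal cells, had 0 counts in each of the 6 libraries. Of the other markers of such cells, the fibroblast marker COL1A1 was present, with 14, 75 and 47 counts in DMSO replicates 1 to 3 and 17, 88 and 72 in SAL, while the macrophage marker CD68 had 1 to 4 counts a library and DCN and TP63 had at most 1.

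For the respiratory chain, replicate 1 stood apart from the others in both conditions. The members took 1.34% of counts without rRNA in DMSO replicate 1, 0.709% in DMSO replicate 2 and 0.566% in DMSO replicate 3. With SAL these shares were 1.21%, 0.715% and 0.529%. Replicate 1 was the highest of each group, and the groups overlapped. The mean log2 CPM (counts scaled to a library of 1000000) in replicate 1 was above that in replicates 2 and 3 for 72 of the 80 tested members. The median of this difference was 1.31 on the log2 scale over the members and -0.02 over all 16835 genes tested. It ran from -1.55 for SDHA, the flavoprotein of complex II, to 2.61 for COX7B, a small subunit of complex IV.

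Replicate number accounted for 93.4% of the members' sum of squares of log2 CPM and treatment for 3.07%. Over all genes tested these shares were 77.1% and 16.8%. Across the 80 members the shift of replicate 1 had a Spearman's rho of -0.54 with transcript length, a description only, since all points share the same libraries. Short genes outside the respiratory chain shifted the same way. Among all genes tested, the 634 with transcripts under 500 bases had a median shift of 1.01, and the 2942 of 4000 bases or more had -0.60. For members under 500 bases the median was 1.84 (n = 15). The part of transcript length in the results below was not tested apart from a correction for GC content and length that is given beside them.

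**Figure D1:**
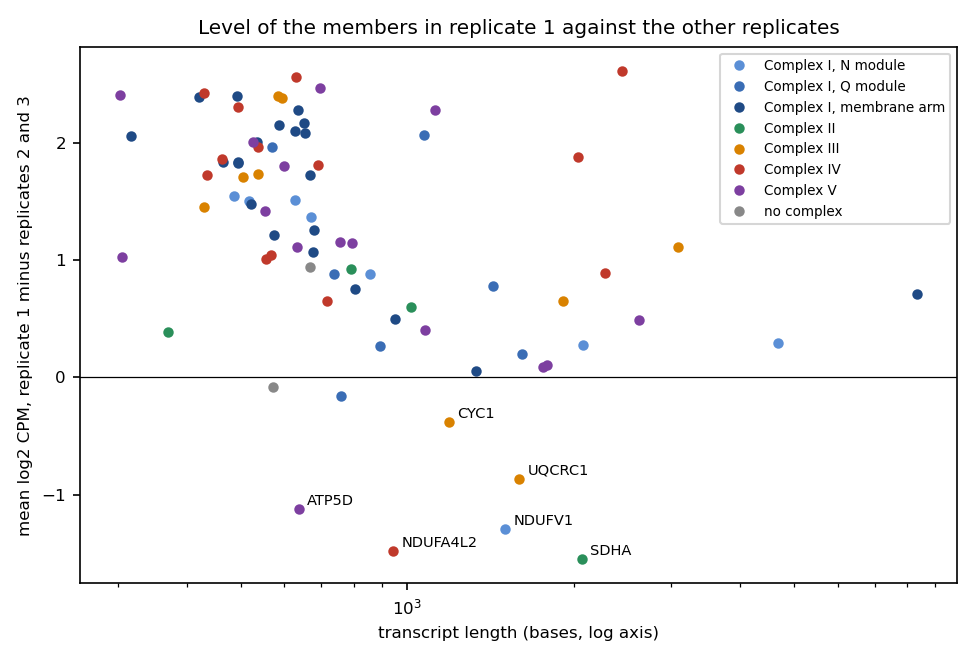
Difference in mean log2 CPM between replicate 1 and replicates 2 and 3 (y axis, both conditions averaged) against transcript length in bases (x axis, log scale) for the 80 tested members, 1 point a gene, coloured by complex. Most points lie above 0, and the 6 named genes lie furthest below it.

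To ask which subunit genes respond to androgen at SAL, SAL was compared with DMSO within pairs. Of the 80 members that passed the filter on low counts, 8 were up-regulated (10%, where 11.5% of all genes tested were up-regulated) and 3 were down-regulated (3.75%, where 9.37% of all genes were). The shares were thus close to the background for genes up-regulated and below it for genes down-regulated, and this difference was not tested. The other 69 did not pass. An unadjusted p under 0.05 was seen for 16 of the 80 members and for 5449 of the 16835 genes tested. The median log2 fold change was 0.07 over the members and -0.0011 over all genes tested, with 49 members above 0 and 31 below. For 74 of the 80, the absolute log2 fold change was under 0.5. The 2 members not tested were ATP5L2 and COX7A1, with 33 and 36 counts in all.

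In every tested member the SAL and DMSO libraries overlapped. All SAL libraries lay above all DMSO libraries for 0 of the 80 (3.78% of all genes) and below them for 0 (3.73% of all genes). Within pairs, 13 members were higher with SAL in all 3 pairs (16.2%, against 25.9% of all genes) and 11 were lower in all 3 (13.8%, against 25.3%). The remaining 56 changed sign between pairs, which was 70.0% of members and 48.8% of all genes. The 11 members past the threshold moved the same way in all 3 pairs.

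The pairs differed from each other. In pair 1, 24 of 80 members were higher with SAL, with a median difference of -0.12 in log2 CPM. In pair 2, 60 were higher, with a median of 0.29. In pair 3, 46 were higher, with a median of 0.09. The order of the pairs was the same in complex I, which had medians of -0.17, 0.44 and 0.09. Across members, GC content of the transcript had a Pearson's r of -0.64 with the change in pair 1 and of 0.12 with that in pair 2 (n = 80 genes, a description). Without replicate 1, 26 members were up-regulated and 4 down-regulated. Without replicate 2 the numbers were 2 and 5, and without replicate 3 they were 1 and 0. Calls over all genes moved as well, to 14.6% up and 11.7% down without replicate 1, 9.1% and 7.92% without replicate 2, and 4.41% and 2.84% without replicate 3. With a correction for GC content and transcript length, 11 rose (13.8%) and 4 fell (5%), where 15.1% and 7.79% of all genes did. By DESeq2 with the block, 3 rose (ATP5E, ATP5J and UQCRB) and 3 fell (COX5B, CYC1 and NDUFA4L2), 3.75% each way. Over all genes DESeq2 called 7.66% up and 5.64% down.

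**Figure D2:**
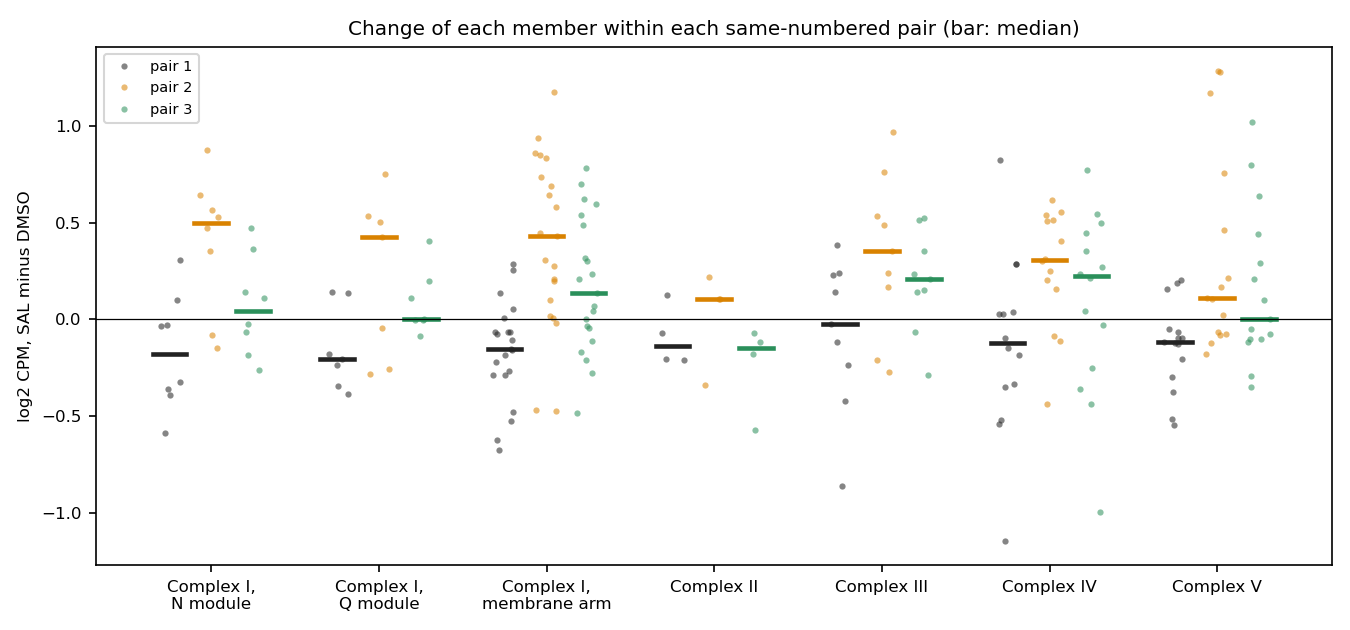
Difference in log2 CPM, SAL minus DMSO, of each tested member (points) within pair 1, pair 2 and pair 3, by complex, with bars at the medians. In complex I the median is below 0 in pair 1 and above 0 in pair 2.

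**Figure D3:**
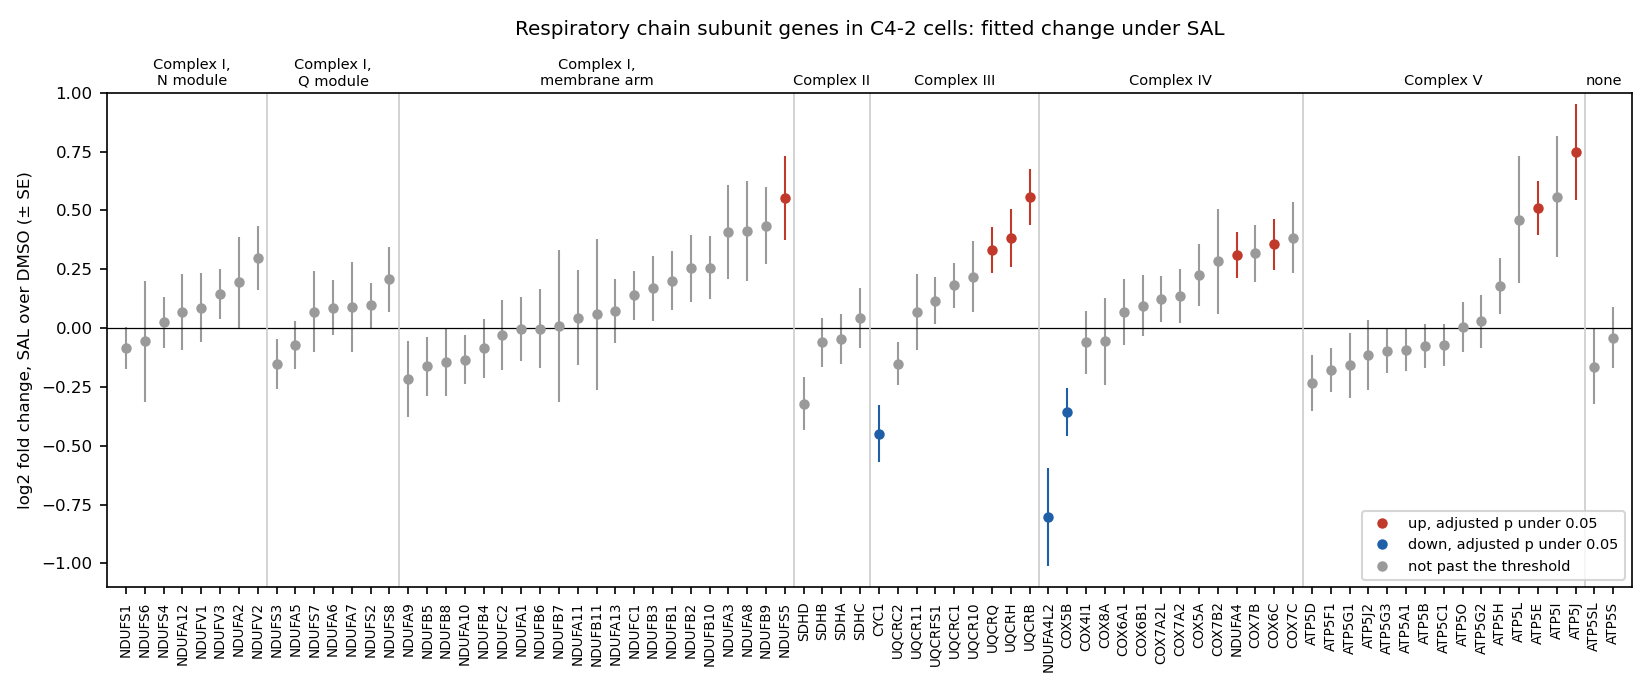
Log2 fold change of SAL over DMSO for the 80 tested members with its standard error (vertical lines), ordered within each complex. Of these, 8 members in red were up-regulated, 3 in blue were down-regulated and 69 in grey did not pass the threshold.

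Complex I, the NADH dehydrogenase, had 36 tested members. Of these, 1 was up-regulated (2.78%, against 11.5% of all genes tested) and 0 were down-regulated (against 9.37%). At an unadjusted p under 0.05 the numbers were 3 and 0, and DESeq2 called 0. The median log2 fold change was 0.07, 24 members were above 0 and 30 changed sign between pairs. NDUFS5, a small subunit of the membrane arm (chromosome 1, 39491990 to 39500308 in GRCh37, plus strand), was the member called. Its level was 43.5, 8.61 and 10.02 CPM in DMSO replicates 1 to 3 and 47.8, 19.7 and 14.7 CPM in SAL replicates 1 to 3. Each SAL library was above its paired DMSO library, by least in replicate 1. The log2 fold change was 0.55 (SE 0.180, adjusted p = 0.0452). The call was lost without replicate 2 (0.26, adjusted p = 0.293), without replicate 3 (0.58, adjusted p = 0.187), by DESeq2 (0.58, adjusted p = 0.0704) and with at least 10 counts in every library (0.55, adjusted p = 0.0518).

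By part of complex I, the 8 members of the N module, which oxidises NADH, had a median log2 fold change of 0.08. The 7 members of the Q module, which reduces ubiquinone, had 0.09, and the 21 nuclear members of the membrane arm, which pumps protons, had 0.06. The log2 fold changes of all 36 ran from -0.22 for NDUFA9 to 0.55 for NDUFS5. NDUFB7 and NDUFB11, both of the membrane arm, show how pairs cancelled. In pairs 1 to 3, NDUFB7 changed by -0.67, 0.74 and 0.14 in log2 CPM. NDUFB11 changed by -0.62, 0.86 and 0.21. Their fitted changes were 0.01 and 0.06, each with an SE of 0.32, and neither passed. NDUFS1, the large iron-sulphur subunit of the N module, was nearly level across replicates. It had 265, 198 and 255 CPM in DMSO and 259, 179 and 243 CPM in SAL, with a log2 fold change of -0.08 (SE 0.0896).

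Levels of different genes were compared as CPM per kb of reference transcript, mean over the DMSO libraries. They are approximate, because the transcript used in these cells was not determined. The high levels of replicate 1 weigh on these means, so ranks can differ between libraries. The highest mean levels in complex I were those of NDUFB4 (248 CPM per kb), NDUFB5 (212) and NDUFB9 (211), accessory subunits of the membrane arm. In DMSO replicate 3, NDUFS1 (255 CPM over 2080 bases) was above NDUFB4 (55.1 over 651) and NDUFB9 (37.8 over 636) per kb. NDUFB5 was the highest of complex I per kb in DMSO replicates 2 and 3. None of NDUFB4, NDUFB5 and NDUFB9 passed the test, with log2 fold changes of -0.09, -0.16 and 0.44. Without replicate 1, NDUFB9 rose by 0.74 (adjusted p = 9.50e-09) and NDUFB5 fell by 0.38 (adjusted p = 0.00207). NDUFB9 also passed with the GC content and length correction (0.46, adjusted p = 0.0346). Neither NDUFB9 nor NDUFB5 passed by DESeq2, without replicate 2 or without replicate 3.

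Complex II, the succinate dehydrogenase shared with the citric acid cycle, had 4 tested members. By edgeR 0 were called in either direction, 1 had an unadjusted p under 0.05, and DESeq2 called 0. SDHD, a membrane anchor, came nearest, just outside the threshold. It had 80.7, 35.6 and 65.6 CPM in DMSO and 76.7, 28.1 and 44.1 CPM in SAL, lower in all 3 pairs with overlapping groups. Its log2 fold change was -0.32 (SE 0.114, adjusted p = 0.0584), and without replicate 1 it was -0.47 (adjusted p = 0.00252). SDHD did not pass without replicate 2 or without replicate 3. SDHA, SDHB and SDHC had log2 fold changes of -0.05, -0.06 and 0.04. Their mean levels per kb ran from 48.6 CPM per kb for SDHA to 69.8 for SDHC, with SDHD at 76.7. The order differed between libraries, with SDHA below SDHD per kb in DMSO replicate 1 and above it in DMSO replicate 2. SDHA differed from most members in being lowest in replicate 1, with 46.6, 145 and 110 CPM in DMSO and 40.2, 169 and 96.7 CPM in SAL.

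Complex III, the cytochrome bc1 complex, had the highest share of called members, with 3 up-regulated and 1 down-regulated of 9. These were 33.3% and 11.1% of a small set, against 11.5% and 9.37% of all genes tested. The difference was not tested. Only 3 of the 9 members of complex III changed sign between pairs. UQCRB, a small subunit near the ubiquinone site, had 316, 46.5 and 65.1 CPM in DMSO and 412, 91.2 and 83.04 CPM in SAL. It was higher with SAL in every pair, though replicate 1 of both groups exceeded the other 4 libraries. The log2 fold change was 0.56 (SE 0.119, adjusted p = 0.00399), the smallest adjusted p of any member. Among the 11 called members, UQCRB was the one still called without each replicate number in turn.

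UQCRQ, another small subunit, had 429, 202 and 99.2 CPM in DMSO and 473, 258 and 142 CPM in SAL. All 3 pairs rose, and the log2 fold change was 0.33 (SE 0.0977, adjusted p = 0.0251). UQCRH, the acidic hinge protein that helps cytochrome c to dock, had 85.6, 20.8 and 26.3 CPM in DMSO and 100, 35.4 and 30.4 CPM in SAL. Its log2 fold change was 0.38 (SE 0.123, adjusted p = 0.0378). Both calls were lost by DESeq2 (adjusted p = 0.0727 and 0.130), without replicate 2 (0.0873 and 0.264) and without replicate 3 (0.496 and 0.140).

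CYC1 moved the other way. It encodes cytochrome c1, the haem subunit that hands electrons to cytochrome c, and had 94.4, 140 and 70.3 CPM in DMSO and 51.9, 121 and 57.4 CPM in SAL. The fall was largest in pair 1. The log2 fold change was -0.45 (SE 0.122, adjusted p = 0.0175), and the call was lost without replicate 1 (-0.25, adjusted p = 0.0812) and without replicate 3 (-0.53, adjusted p = 0.106). The other members did not pass. The core subunits UQCRC1 and UQCRC2 had log2 fold changes of 0.18 and -0.15, the Rieske protein UQCRFS1 had 0.12, and the small subunits UQCR10 and UQCR11 had 0.22 and 0.07. By the mean over DMSO libraries, UQCRQ had the highest level of the complex (568 CPM per kb), followed by UQCRB (239) and UQCR11 (141). In DMSO replicate 2, CYC1 (140 CPM over 1191 bases) was above UQCRB and UQCR11 per kb. There UQCRB had 46.5 CPM over 595 bases and UQCR11 had 42.4 CPM over 504 bases.

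Complex IV, cytochrome c oxidase, had 14 tested members. Of these, 2 were up-regulated and 2 down-regulated (14.3% each, against 11.5% and 9.37% of all genes tested). COX6C, a small nuclear subunit, had 1094, 190 and 155 CPM in DMSO and 1116, 270 and 226 CPM in SAL. Pair 1 barely moved, while pairs 2 and 3 rose. The log2 fold change was 0.36 (SE 0.1095, adjusted p = 0.0321), and it lost its call by DESeq2 (adjusted p = 0.0602), without replicate 2 (0.26, adjusted p = 0.199) and without replicate 3 (0.27, adjusted p = 0.504). COX5B, a zinc-binding nuclear subunit, fell in the same complex. It had 1144, 404 and 216 CPM in DMSO and 787, 380 and 159 CPM in SAL, with a log2 fold change of -0.36 (SE 0.103, adjusted p = 0.0223). Each pair fell, least in pair 2, and the call was lost without replicate 3 (-0.31, adjusted p = 0.399).

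By these means, COX6C and COX5B had the highest levels of complex IV and of all members, 1118 and 852 CPM per kb. COX6B1 (563) followed in this complex. The rank over all members rested on replicate 1. In DMSO replicate 3, ATP5A1 (688 CPM over 1793 bases) was above both per kb. There COX6C had 155 CPM over 429 bases and COX5B had 216 CPM over 690 bases. COX6B1, which faces cytochrome c, did not pass (0.10), nor did the large nuclear subunit COX4I1 (-0.06). COX7B, just outside the threshold, had a log2 fold change of 0.32 (SE 0.122, adjusted p = 0.0789). It passed with the GC content and length correction (0.42, adjusted p = 0.0434) and without replicate 1 (0.53, adjusted p = 0.00694). COX7B did not pass by DESeq2, without replicate 2 or without replicate 3. Without replicate 1, COX6B1 rose by 0.33 (adjusted p = 0.00954), and without replicate 2, COX4I1 fell by 0.31 (adjusted p = 0.0433). Neither COX6B1 nor COX4I1 passed by DESeq2 or with any other replicate number left out.

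NDUFA4 and NDUFA4L2, paralogues in the same place of the complex, were called in opposite directions. NDUFA4 had 172, 53.2 and 39.8 CPM in DMSO and 209, 61.3 and 54.3 CPM in SAL, higher in all 3 pairs. Its log2 fold change was 0.31 (SE 0.0978, adjusted p = 0.0351). NDUFA4L2, known as a gene induced by low oxygen, had 5.70, 18.2 and 10.8 CPM in DMSO and 2.43, 13.4 and 5.30 CPM in SAL. It was lower in all 3 pairs, and its log2 fold change of -0.80 (SE 0.208, adjusted p = 0.0120) was the largest fall of any member. Without replicate 3 both calls were lost (adjusted p = 0.468 and 0.161), and by DESeq2 that of NDUFA4 was lost (adjusted p = 0.142).

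The ratio of reads on NDUFA4 to reads on NDUFA4L2 was 30.1, 2.92 and 3.68 in DMSO replicates 1 to 3 and 86.1, 4.58 and 10.3 in SAL. It rose in each pair, by 1.51, 0.65 and 1.48 on the log2 scale, with a mean of 1.21 ± 0.49 (SD, n = 3 pairs). The 2-sided exact paired permutation test gave p = 0.25, the smallest that 3 pairs allow. Replicate 1 again stood apart, with NDUFA4 at its highest and NDUFA4L2 at its lowest in both groups. Both genes had been seen to move before this ratio was formed, so it adds no independent support.

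Complex V, the ATP synthase, had 15 tested members. Of these, 2 were up-regulated (13.3%, against 11.5% of all genes tested) and 0 down-regulated (against 9.37%). At an unadjusted p under 0.05, 0 of them were lower, and DESeq2 called 0 down. ATP5D, the delta subunit, did not pass in this fit (-0.23, SE 0.119, adjusted p = 0.197) but was called down-regulated with the GC content and length correction and without replicate 2. ATP5E, the epsilon subunit of the central stalk, had 279, 43.6 and 41.0 CPM in DMSO and 321, 73.8 and 63.8 CPM in SAL. Its log2 fold change was 0.51 (SE 0.114, adjusted p = 0.00494). ATP5J, the coupling factor of the peripheral stalk, had 70.4, 13.3 and 11.5 CPM in DMSO and 80.0, 32.6 and 23.5 CPM in SAL. Its log2 fold change of 0.75 (SE 0.205, adjusted p = 0.0355) was the largest rise of any member. For both genes the rise was smallest in pair 1. Without replicate 2 the adjusted p was 0.0515 for ATP5E and 0.124 for ATP5J, and without replicate 3 it was 0.160 and 0.129.

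No change past the test was seen in the catalytic core of the synthase. The alpha subunit ATP5A1 had 843, 885 and 688 CPM in DMSO and 788, 839 and 642 CPM in SAL. The beta subunit ATP5B had 883, 1029 and 583 CPM in DMSO and 766, 1045 and 564 CPM in SAL. Neither passed the test, with log2 fold changes of -0.09 (SE 0.0900) and -0.08 (SE 0.0935). ATP5B, ATP5A1 and the gamma subunit ATP5C1 had the highest levels of the complex, 473, 449 and 282 CPM per kb. The 3 genes of the proton-carrying c subunit, ATP5G1, ATP5G2 and ATP5G3, encode the same mature protein. Their log2 fold changes were -0.16, 0.03 and -0.10, and none passed. ATP5G2 had 138, ATP5G3 121 and ATP5G1 76.0 CPM per kb.

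**Figure D4:**
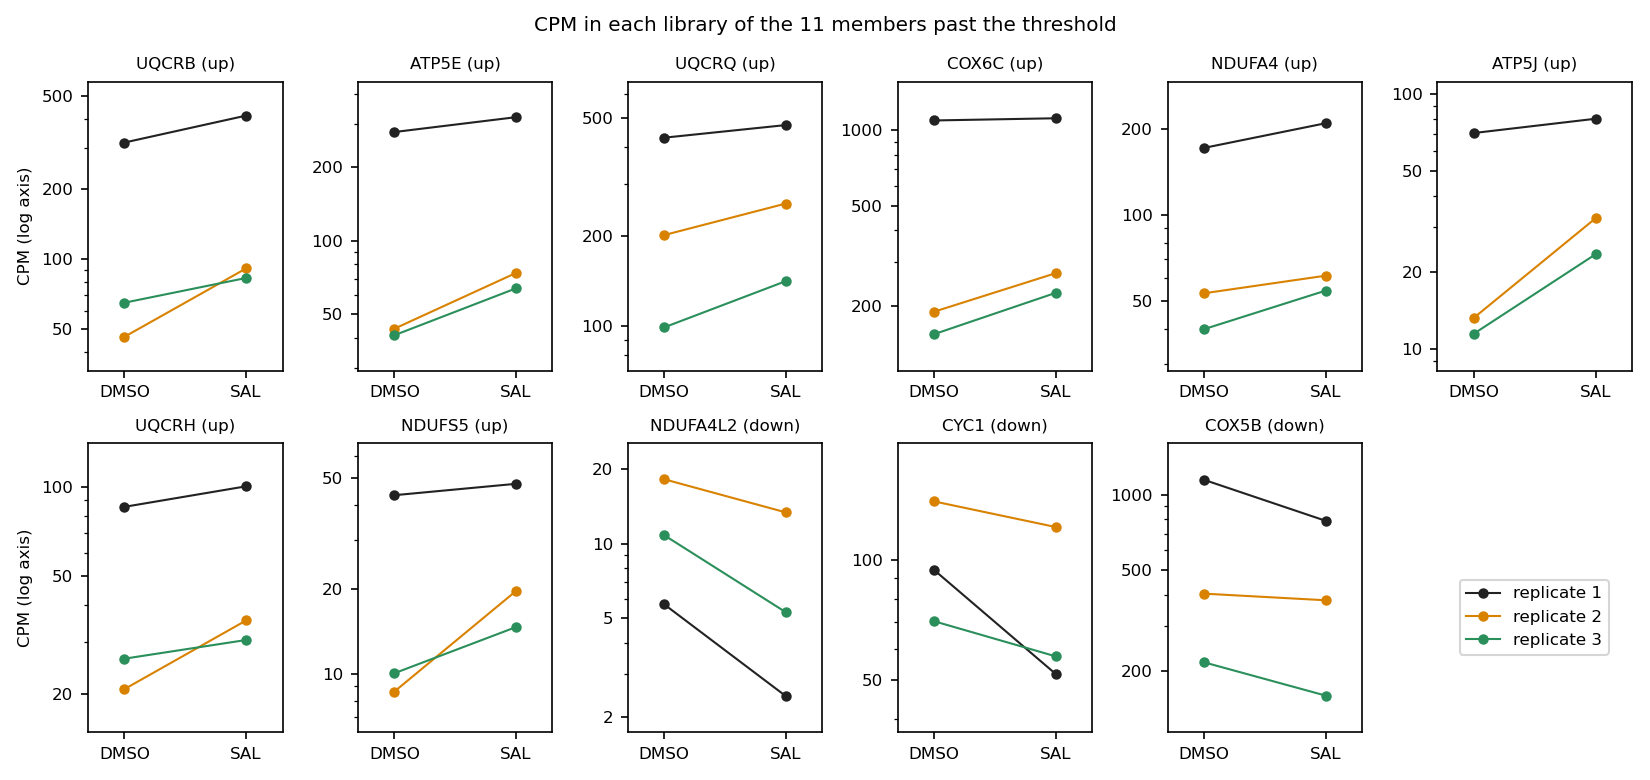
CPM (y axis, log scale) in each of the 6 libraries for the 11 members past the threshold, with a line joining the DMSO and SAL libraries of a replicate number. The 8 up-regulated members rise and the 3 down-regulated members fall along every line, and for all but NDUFA4L2 and CYC1 replicate 1 is the highest of its group.

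Several complex IV subunits have tissue-specific forms, and C4-2 cells held the ubiquitous ones. COX4I2, the lung form, and COX8C had 0 reads in 6 libraries, while COX4I1 and COX8A had 9028 and 3004. The muscle form COX6A2 had 1 read and the testis form COX6B2 had 4, against 1322 on COX6A1 and 11456 on COX6B1. These 4 forms fell under the minimum of 10 counts and are not members. COX7A1, the heart and muscle form, had 36 reads, from 2 to 9 a library, and COX7A2 had 2328. The 0.372, 0.274 and 0.668 CPM of COX7A1 in DMSO lay below its 1.15, 0.877 and 1.11 CPM in SAL. This difference was not tested in the reported fit, because these counts were under the filter. In the fit without a filter, COX7A1 was tested and was not called. COX7B2 was the exception, with 488 reads against 2954 on COX7B. Per kb of reference transcript it had 15.9 CPM in DMSO, against 23.8 for COX7B, a ratio of 1.498. This ratio rests on reference transcripts of 2444 bases for COX7B and 556 for COX7B2, and the transcripts used in these cells were not determined. It also rests on replicate 1. In DMSO replicates 1 to 3, COX7B had 137, 19.1 and 18.4 CPM and COX7B2 had 11.3, 7.93 and 7.35 CPM. Per kb of these transcripts, COX7B2 was the higher of the pair in DMSO replicates 2 and 3. The changes of COX7B2 in pairs 1 to 3 were 0.82, 0.16 and -0.36. Its log2 fold change of 0.28 (SE 0.222) did not pass.

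Reads on near-identical copies make some members uncertain. Of the 82, 38 have pseudogenes named after them in the files, and for 8 these held over 10% of the reads on gene and copies together. The share was 81.7% for COX6A1, 62.6% for NDUFV2, 49.7% for NDUFA9 and 38.5% for ATP5E. With the copies summed into each gene, an alternative chosen after seeing the data, 9 members rose and 3 fell. All 11 calls were kept and NDUFV2, a flavoprotein of the N module, was added. The exons of 44 members overlap those of another gene in GRCh37, and strand was not used in counting. ATP5J overlaps GABPA over 692 bases, ATP5E overlaps TUBB1 over 1180, UQCRQ overlaps GDF9 over 255 and UQCRB overlaps UQCRB-AS1 over 120. NDUFA4L2 overlaps SHMT2 over 33 bases. How far shared reads enter these values was not tested.

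The mitochondrially encoded subunits were set beside the nuclear ones. Of the 13, 6 were up-regulated by edgeR (46.2%, against 11.5% of all genes tested) and 0 down-regulated (against 9.37%). DESeq2 also called 0 down, and 0 were lower at an unadjusted p under 0.05. The median log2 fold change was 0.46. MT-ATP8 and MT-ATP6, subunits of complex V, rose by 0.66 and 0.46 (SE 0.118 and 0.115, adjusted p = 0.00118 and 0.0107). MT-ND4L of complex I rose by 0.62 (SE 0.117, adjusted p = 0.00159). MT-ND4L had 967, 684 and 460 CPM in DMSO and 1214, 1006 and 908 CPM in SAL. The 13 took 4.44%, 2.82% and 1.99% of counts without rRNA in DMSO and 4.39%, 3.33% and 2.66% in SAL, with pair 1 almost level. Without replicate 1, 11 rose, without replicate 2, 2 did, and without replicate 3, 0 did, in fits that called 14.6%, 9.1% and 4.41% of all genes up.

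Among 19 tested regulators of mitochondrial biogenesis, 0 were up-regulated (0 also by DESeq2) and 3 down-regulated (15.8%). Over all genes tested, 11.5% were up-regulated and 9.37% down-regulated. Of the 19, 4 had an unadjusted p under 0.05 in either direction, and 17 had a log2 fold change below 0, with a median of -0.18. TFAM, which packages and transcribes mitochondrial DNA, had 129, 57.8 and 104 CPM in DMSO and 93.4, 40.7 and 74.5 CPM in SAL. Its log2 fold change was -0.48 (SE 0.0938, adjusted p = 0.00164). PPARGC1B, a coactivator of respiratory genes, had -0.38 (SE 0.106, adjusted p = 0.0193), and GABPA, the DNA-binding part of GABP, had -0.33 (SE 0.107, adjusted p = 0.0403). The calls of PPARGC1B and GABPA were lost by DESeq2 (adjusted p = 0.0982 and 0.176), and that of GABPA with the GC content and length correction (-0.19, adjusted p = 0.244). Without replicate 2, 1 of the 19 fell, and without replicate 3, 0 did.

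Among 51 tested assembly factors, 2 were up-regulated (3.92%, against 11.5% of all genes tested) and 4 down-regulated (7.84%, against 9.37%). The median log2 fold change was -0.0019. CMC2, of complex IV, rose by 0.48 (SE 0.108, adjusted p = 0.0049) and NDUFAF1, of complex I, by 0.46 (SE 0.133, adjusted p = 0.0218). LRPPRC, which stabilises mitochondrial mRNA, fell by 0.44 (SE 0.0955, adjusted p = 0.00377). NDUFAF4 of complex I fell by 0.50 (SE 0.116, adjusted p = 0.00571), and LYRM7, a chaperone of the Rieske protein, fell by 0.37 (SE 0.101, adjusted p = 0.0164). DESeq2 called 1 factor up and 2 down, and without replicate 3, 0 of the 51 passed.

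Of 30 tested carriers and associated proteins, 2 were up-regulated (6.67%, against 11.5% of all genes tested) and 3 down-regulated (10%, against 9.37%). Their median log2 fold change was -0.09. HIGD1A, a protein associated with complexes III and IV, rose by 0.42 (adjusted p = 0.00982). SLC25A4, an ADP/ATP carrier, rose by 0.35 (adjusted p = 0.0347) with all 3 SAL libraries above all 3 DMSO libraries. This separation was seen for 1 of the 30 and for 3.78% of all genes. GPD2, which feeds electrons from glycerol phosphate, fell by 0.50 (adjusted p = 0.00231). CYCS, which encodes cytochrome c, fell by 0.36 (adjusted p = 0.00984), as did PDSS1 of ubiquinone synthesis, by 0.59 (adjusted p = 0.0139). Without replicate 1, 9 of these rose and 6 fell, and without replicate 3, 0 passed.

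The 75 tested proteins of the mitochondrial ribosome, which translates the mitochondrially encoded subunits, had 1 member up-regulated and 5 down-regulated. These were 1.33% and 6.67%, against 11.5% and 9.37% of all genes tested. The median log2 fold change was -0.01. MRPS28 rose by 0.47 (adjusted p = 0.0330). MRPL23 fell by 0.43 (adjusted p = 0.00794), MRPS27 by 0.35 (adjusted p = 0.0149) and MRPL3 by 0.32 (adjusted p = 0.0223). Their levels shared the shift of replicate 1, with 0.624%, 0.417% and 0.363% of counts without rRNA in DMSO and 0.550%, 0.406% and 0.327% in SAL. DESeq2 called 0 of them up and 2 down. Without replicate 1, 9 rose, and without replicate 3, 0 passed in either direction.

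**Figure D5:**
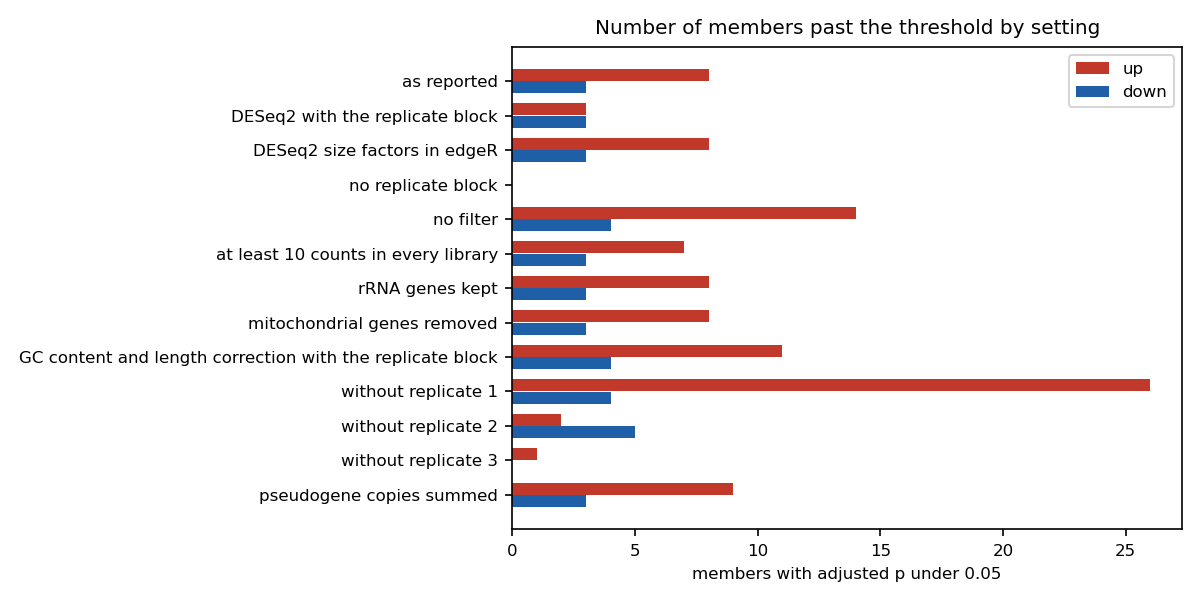
Number of members with adjusted p under 0.05 (x axis) in each direction under the reported fit and each alternative (y axis). The number up-regulated runs from 0 without the replicate block to 26 without replicate 1.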

How the data were processed

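RNA-seq was performed on C4-2 cells given DMSO or SAL (3 libraries each). The authors trimmed reads, aligned only read 1 of the pairs to hg19 (TopHat2 2.1.0) and counted reads in exons without regard to strand with HTSeq 0.11.2 and the gencode v19 annotation. The deposited values are raw counts per gene symbol, not normalized. Here 523 rRNA symbols were removed, low genes were removed with filterByExpr and counts were scaled with TMM. The difference between SAL and DMSO was tested with edgeR 4.0.16 (quasi-likelihood, robust, R 4.3.3), with the replicate number as a block and Benjamini-Hochberg adjustment over the 16835 genes tested, and an adjusted p under 0.05 made a DEG. Every adjusted p comes from this fit unless DESeq2 1.42.0 or another setting is named. SE was derived as the size of the log2 fold change over the root of F. Changes within pairs were taken on log2 CPM, to which a prior of 2 counts had been added.

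Pairing rests on the replicate numbers of the labels and on the paired test in the study's methods. Same-numbered libraries deviated together from their group means (r = 0.89, 0.86 and 0.74 over all genes tested and 0.92, 0.85 and 0.91 over the members for pairs 1 to 3).

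Members and gene lists were chosen with earlier results of these data known. Named genes are the members past the threshold, the 3 with the highest level per kb in each complex, the isoforms, and up to 3 genes in each direction from each list of other pathway genes. SDHD, COX7B, ATP5D, NDUFA9, NDUFB7, NDUFB11, NDUFS1 and the remaining members of complexes II and III were named after their values were seen. Positions in GRCh37, transcript lengths (the shortest transcript with a consensus coding sequence, else the canonical one) and GC content come from GENCODE v44 lifted to GRCh37, newer than the authors' annotation. GC content and length were known for 84.0% of genes tested and for all 80 tested members. The fit was tested on simulated data. Depth (6931042 to 9776990 counts) and 3 libraries per group limit the precision, and a member with few counts could change without passing. Alternatives were DESeq2, its size factors, no block, 2 other filters, rRNA genes kept, mitochondrial genes removed, GC content and length correction, a stricter threshold of 0.01, each replicate number left out, and pseudogene copies summed, the last chosen after seeing the data.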

Additional observations from a re-analysis of the deposited data

How the results depend on the processing

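Without the replicate block, 0 members rose and 0 fell, 0 had an unadjusted p under 0.05, and over all genes 18 rose and 3 fell, so 0 was the count in both directions for each list of other pathway genes as well. DESeq2 with the block gave 3 members up, 1 assembly factor up and 2 down, 1 biogenesis regulator down, 1 carrier up, and 0 mitochondrial ribosomal proteins up and 2 down. Without a filter, 14 members (17.1%, against 6.68% of all genes) and 4 mitochondrial ribosomal proteins rose. With the GC content and length correction, 6 assembly factors rose and 2 fell, 5 carriers rose and 6 mitochondrial ribosomal proteins rose, and over all genes 2544 rose and 1312 fell (1931 and 1577 without it). At an adjusted p under 0.01, 2 members rose and 0 fell, and the share of all genes at that threshold is not given here. Over all genes, the fits with a replicate number left out called 4.41% to 14.6% up and 2.84% to 11.7% down. Leaving out each replicate number in turn gave 1 to 26 members up and 0 to 5 down, 0 to 4 assembly factors up and 0 to 5 down, 0 to 3 biogenesis regulators down, 0 to 11 mitochondrially encoded subunits up, 0 to 9 carriers up and 0 to 6 down, and 0 to 9 mitochondrial ribosomal proteins up and 0 to 8 down. The median log2 fold change of the members ran from -0.04 to 0.23 over these. Of the 132 values of the 11 called members under alternatives, 98 kept direction and call, 34 kept direction only and 0 reversed. DESeq2's size factors, rRNA genes kept and mitochondrial genes removed left the same 11 members called. The cause of these differences was not tested. Depth limits members such as NDUFA4L2, with 444 counts in all, more than COX5B, with 24708.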
